A study of Danio rerio with 16 samples.

Results

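The comparison described here set 4 injured ankrd1a mutant zebrafish against 4 injured wild types, which are 8 of the 16 libraries of the study. Members were taken from the sample labels, and all 32520 genes of the count table entered, of which 16514 had enough counts to be tested. The wild types were of strain AB (Oregon), and the mutants carried the CRISPR/Cas9 allele bns502 of ankrd1a, which the protocol writes as ankrd1a-/-. All 8 were adult fish under anaesthesia when a needle was pushed into the dorsal tail muscle and withdrawn, and tissue around the lesion was taken after 5 days. The other 8 libraries, 4 wild types and 4 mutants without injury, are called resting muscle below. They show whether a genotype difference was also there without a wound, and they share in the estimate of the spread between fish. Each library was poly(A) RNA of 1 fish. The labels state neither sex nor exact age, nor whether mutants and wild types were siblings, so genotype and line cannot be told apart.

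Ankrd1 carries ankyrin repeats, binds titin at the I-band of the sarcomere in striated muscle, and is also found in the nucleus. Their genes are known for strong induction by stretch, denervation and injury, and zebrafish carry the paralogs ankrd1a and ankrd1b. Muscle repair after a stab runs through clearance of dead fibres by phagocytes, activation and fusion of satellite cells, growth of new fibres that pass through developmental myosins, and a transient rise of fibroblasts and matrix. Gene symbols are printed as the reference table pairs them with the gene IDs, an ID is added where several tested genes share a symbol, and roles of genes printed in capitals are known mainly from mammals.

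Injured wild types had 22006043 to 24189296 estimated counts and injured mutants 17324501 to 17994093, so depth was fully split by genotype among the injured fish. Levels below are CPM (a gene's counts relative to the size of its library) scaled with edgeR's TMM factors, and fold changes are log2 of mutant over wild type. The fast myosin gene myhc4 was the most abundant gene in each library, and the 46 tested genes of a fast contractile list summed to between 296675 and 519334 CPM in the injured fish. The samples also held epidermis markers, at 1425 to 3280 CPM summed over 34 genes in injured wild types and 1477 to 2423 CPM in injured mutants. Changes in the number of cells of a type and in RNA per cell cannot be told apart in such bulk tissue.

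Among genes named ANKRD1, the abundant ID stood far higher in injured than in resting fish of both genotypes and did not pass the test between injured groups. ENSDARG00000075263 stood at 148, 151, 186 and 180 CPM in injured wild types 1 to 4 and at 147, 141, 90.05 and 148 CPM in injured mutants 1 to 4. Those ranges overlapped, and mutant 3 was the lowest fish. The log2 fold change was -0.33 (SE 0.23, edgeR adjusted p = 0.55). In resting muscle the same gene had 3.53 ± 1.5 CPM in wild types and 1.22 ± 0.15 CPM in mutants (SD, n = 4 each), a log2 fold change of -1.53 (edgeR adjusted p = 0.010), and the interaction did not pass (edgeR adjusted p = 0.42). The other ID, ENSDARG00000076192, had 11 to 35 counts per injured wild type and 17 to 37 per injured mutant, with a log2 fold change of 0.74 (SE 0.57, edgeR adjusted p = 0.60). The family member ANKRD2 had 0 to 4 counts in each library and was not tested. The sources used here state neither which ANKRD1 ID is ankrd1a nor where the lesion lies, so these levels check nothing about the genotype labels.

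Across all genes, 244 of 16514 (1.48%) were called between the genotypes in injured muscle, at an adjusted p below 0.05 in edgeR's quasi-likelihood test. Of these, 137 (0.83%) rose and 107 (0.648%) fell in mutants. The median size of a called difference was 1.36 on the log2 scale, and 163 differed by at least 1 log2 unit. All 4 mutants lay beyond all 4 wild types for 239 of the 244 calls, against 1945 genes (11.8%) with groups that did not overlap among all those tested. The first principal component of the 8 injured libraries held 31.3% of the variance and separated the genotypes, with wild types between -56.5 and -10.9 and mutants between 27.8 and 43.2. The number of calls depended on the tool and on single fish. It was 701 with DESeq2, 386 when only the 8 injured libraries were fitted, and 116, 106 or 135 without injured wild type 1, 2 or 3. It was 157, 135 or 123 without injured mutant 2, 3 or 4. Without TMM scaling, the median of all genes moved to 0.13 and 74.0% of the calls were rises, against 56.1% with it.

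Of the 244 genes, 83 (34.0%) were also called in resting muscle, where 467 (2.83%) of all genes were called, 228 (1.38%) higher and 239 (1.45%) lower in mutants. These 83 were 17.8% of the resting calls. Each of the 83 had the same direction in both states, 47 higher and 36 lower in mutants. The fish of the 2 contrasts were different animals, but both contrasts came from 1 fit with a shared estimate of spread. With injured and resting libraries fitted separately, 34 genes were called in both states in the same direction. A total of 218 injured calls (89.3%) had the same sign at rest. Across all genes tested, the injured and resting effects had a Pearson correlation of 0.46, so some agreement was general. The difference between the genotype effects was tested with an interaction term, and 10 genes (0.0606%) passed, 3 (0.0182%) with a positive and 7 (0.0424%) with a negative term. Of the 10, 6 were among the 244 injured calls, and 4 of the 10 have only a clone name or an ID. At an unadjusted p below 0.05 that term gave 1207 genes (7.31%), and the injured contrast 2474 (15%). In the plot of both contrasts, CCDC92 and DGLUCY lie near the vertical axis, where the resting difference is close to 0.

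**Figure D1:**
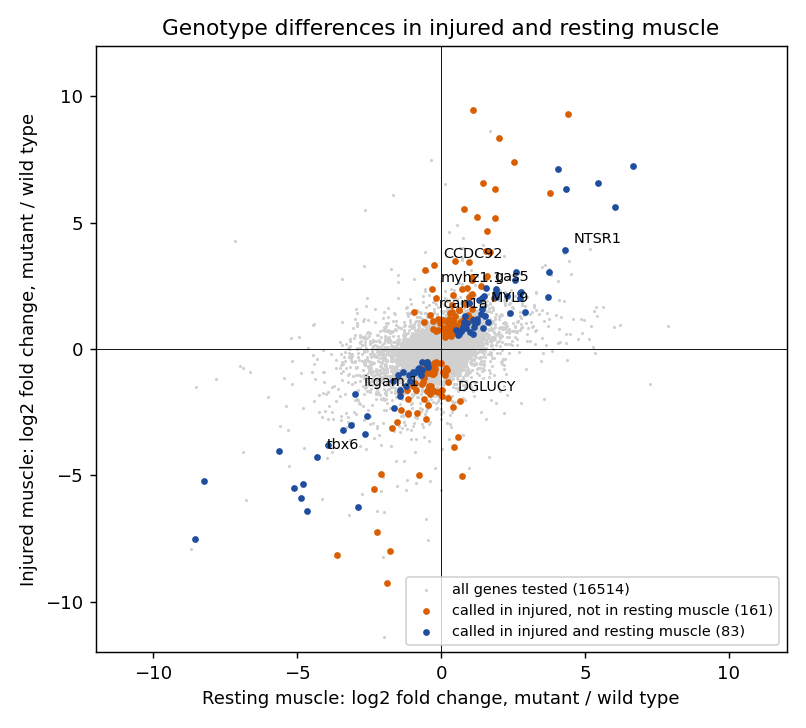
Log2 fold change of mutant over wild type in resting muscle (horizontal axis) and injured muscle (vertical axis), 1 point per gene tested. Blue points are the 83 genes called in both states, which all lie in the lower left or upper right corner, orange points are genes called in injured muscle and not in resting muscle, and grey points are all 16514 genes.

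Of the fast myosin heavy chain genes, 3 myhz genes of low level in resting muscle were higher in the injured mutants. In a list of 46 fast contractile genes, 3 rose and none fell (6.52% called, beside 1.48% of all genes). The 3 were myhz1.1, myhz1.2 and myhz2. The dominant heavy chain gene myhc4 did not pass, at 125579 ± 35357 CPM in injured wild types and 96805 ± 16025 CPM in injured mutants, nor did myhb, at 48.7 ± 33.2 and 13.1 ± 12.1 CPM (SD, n = 4 each). The gene myhz1.1 had 580, 201, 357 and 194 CPM in injured wild types 1 to 4. It had 2407, 1556, 936 and 1948 CPM in injured mutants 1 to 4. Each mutant was above each wild type, with a log2 fold change of 2.36 (SE 0.37, edgeR adjusted p = 0.0040). Its neighbour in name myhz1.2 had 76.4 to 142 CPM in wild types and 195 to 595 CPM in mutants, a log2 fold change of 2.02 (SE 0.36, edgeR adjusted p = 0.011). The more abundant myhz2 had 3091, 3401, 2989 and 3325 CPM in wild types and 7817, 7578, 4729 and 7822 CPM in mutants. The groups did not overlap, mutant 3 was well below the other mutants, and the log2 fold change was 1.13 (SE 0.23, edgeR adjusted p = 0.022).

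These myosins are close copies, and estimated counts may be divided between them, so their sum is the safer level. Summed over myhz1.1, myhz1.2, myhz1.3 and myhz2, the 4 injured wild types had 4107 to 4580 CPM and the 4 injured mutants 7334 to 12986 CPM. Resting fish of both genotypes had 121 to 384 CPM. The interaction did not pass for myhz1.1 (log2 difference 2.69, edgeR adjusted p = 0.096) or myhz2 (1.41, edgeR adjusted p = 0.21). Over the whole list of 46 genes, 18 fold changes were positive and 28 negative, with a median of -0.14, which became 0.02 without TMM scaling. The call of myhz2 was lost on leaving out any of injured wild types 1 to 3 or injured mutants 1, 2 and 4 (edgeR adjusted p 0.059 to 0.070). That of myhz1.2 was lost without injured wild type 2 (edgeR adjusted p = 0.0503).

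Genes of satellite cells and fusion included 2 rises and no fall among 36 tested (5.56% called, beside 1.48% of all genes). Of the 36 fold changes, 21 were positive and 15 negative, with a median of 0.05, against -0.001 over all genes. Their summed levels overlapped, at 1398 to 2103 CPM in injured wild types and 1580 to 1700 CPM in injured mutants. CDH15, the M-cadherin of satellite cells and myoblasts, had 25.96, 27.3, 31.5 and 26.1 CPM in injured wild types and 46.8, 50.9, 51.0 and 50.9 CPM in injured mutants. The groups lay far apart, with a log2 fold change of 0.85 (SE 0.15, edgeR adjusted p = 0.011). At rest CDH15 had 18.9 ± 4.2 CPM in wild types and 25.0 ± 4.3 CPM in mutants (SD, n = 4 each). That log2 fold change of 0.41 was not called (edgeR adjusted p = 0.16), and the interaction did not pass (0.44, edgeR adjusted p = 0.70). The other was jam2a, whose product is a cell surface protein needed for myoblast fusion in zebrafish, at 9.73 ± 0.95 CPM in wild types and 15.8 ± 2.8 CPM in mutants (SD, n = 4 each). Its log2 fold change was 0.70 (SE 0.14, edgeR adjusted p = 0.019), and it was as large in resting muscle, at 0.69 (edgeR adjusted p = 0.017). FST (ENSDARG00000052846), the secreted follistatin that binds activins and myostatin, had 2.91, 6.03, 5.72 and 4.19 CPM in wild types and 7.84, 8.85, 12.1 and 12.7 CPM in mutants. With a log2 fold change of 1.14 (SE 0.24, edgeR adjusted p = 0.025), it was the only call among 68 genes of TGF-beta, BMP and IGF signalling. That is 1.47% of the list, beside 1.48% of all genes. Leaving out single injured fish ended the call of jam2a for wild types 1, 2 and 3 and mutants 1 and 4 (edgeR adjusted p 0.051 to 0.070). For FST this held for wild types 1 and 4 and mutants 3 and 4 (edgeR adjusted p 0.056 to 0.079).

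The calcineurin inhibitor rcan1a, a gene that calcineurin signalling itself induces in mammals, rose in injured mutants and was among the 10 interaction calls. It had 27.7, 23.3, 26.4 and 15.9 CPM in injured wild types and 76.4, 58.5, 42.9 and 60.9 CPM in injured mutants. All mutants were above all wild types, with a log2 fold change of 1.36 (SE 0.17, edgeR adjusted p = 0.00098). At rest the wild types had 20.1 ± 0.89 CPM and the mutants 15.2 ± 1.1 CPM (SD, n = 4 each). The difference between the injured and resting effects was 1.75 log2 units (edgeR adjusted p = 0.0099). It was the only call among 43 calcium handling genes (2.33% called, beside 1.48% of all genes).

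Among named genes that passed both tests, CCDC92, a coiled-coil protein gene, had the largest interaction. It had 1.16, 1.004, 1.47 and 0.972 CPM in injured wild types and 13.3, 13.6, 6.77 and 12.8 CPM in injured mutants. Resting fish of both genotypes lay between these groups, at 3.08 ± 1.2 CPM in wild types and 2.56 ± 0.82 CPM in mutants (SD, n = 4 each). The injured log2 fold change was 3.33 (SE 0.31, edgeR adjusted p = 6.9e-05) and the interaction 3.59 (edgeR adjusted p = 0.0025).

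DGLUCY, which encodes the mitochondrial D-glutamate cyclase, had the reverse pattern. It had 17.2, 16.5, 19.0 and 12.3 CPM in injured wild types and 5.18, 4.38, 3.56 and 3.72 CPM in injured mutants. Injured mutants were close to resting fish, which had 4.05 ± 0.72 CPM in wild types and 4.83 ± 0.61 CPM in mutants (SD, n = 4 each). The injured log2 fold change was -1.95 (SE 0.17, edgeR adjusted p = 6.3e-05) and the interaction -2.20 (edgeR adjusted p = 0.0025). The plot of 6 genes by fish shows these patterns beside the myosins and CDH15.

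**Figure D2:**
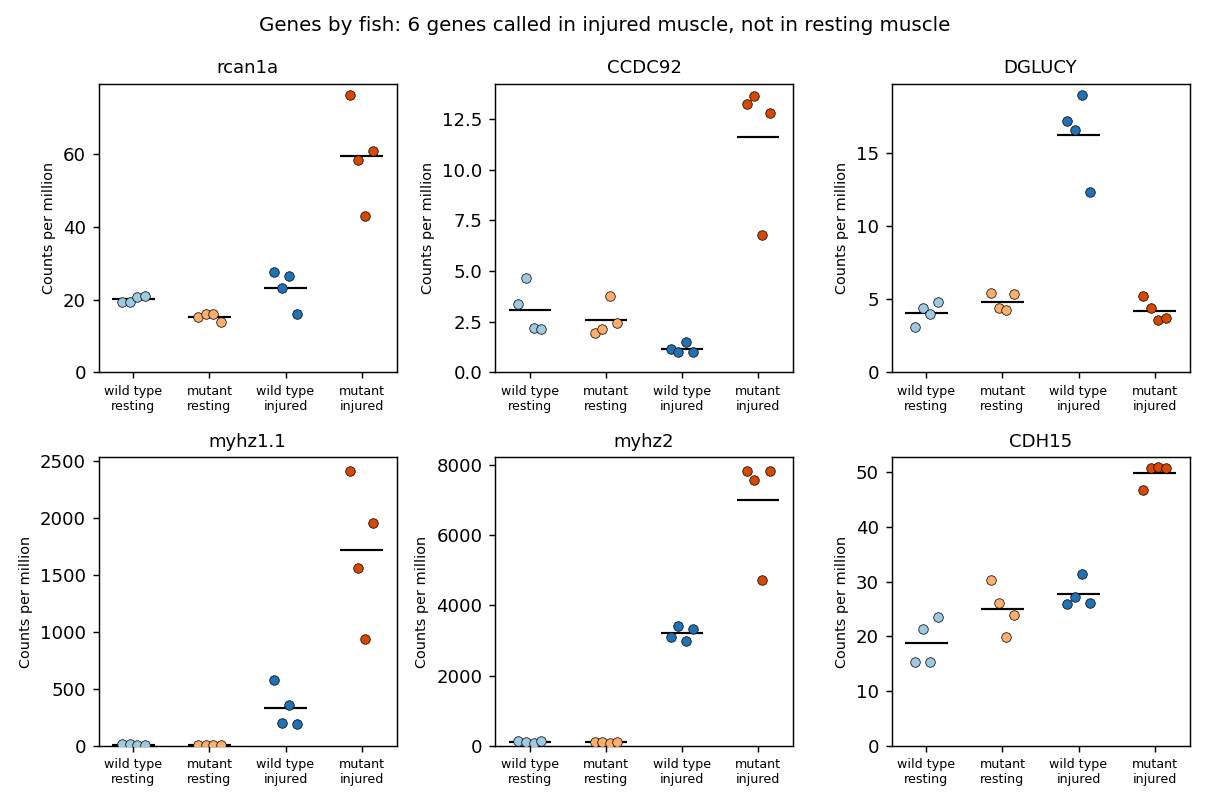
CPM of rcan1a, CCDC92, DGLUCY, myhz1.1, myhz2 and CDH15 in each fish by genotype and injury, 1 point per fish, bars at the group means. In each panel the 4 injured mutants lie on 1 side of the 4 injured wild types, while the resting groups lie close together or overlap.

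A further 3 symbols passed the interaction test without a call in injured muscle. SERPINH1 (ENSDARG00000019949), the collagen chaperone HSP47, had 69.2 ± 9.3 CPM in injured wild types and 51.6 ± 6.9 CPM in injured mutants, and 26.3 ± 6.1 and 48.5 ± 4.6 CPM at rest (SD, n = 4 each). Resting mutants thus stood near the injured mutants and below the injured wild types, and the interaction was -1.31 (edgeR adjusted p = 0.0499). TRHDE (ENSDARG00000109358), a peptidase that degrades thyrotropin-releasing hormone, was lower in resting mutants, with 2.92 ± 0.45 CPM against 7.04 ± 0.59 CPM. After injury it had 12.5 ± 1.3 CPM in mutants and 11.3 ± 1.3 CPM in wild types (SD, n = 4 each), and the interaction was 1.42 (edgeR adjusted p = 0.0074). The zinc finger gene znf1094 had 2.88 ± 0.22 CPM in resting mutants and at most 0.395 CPM in any injured fish.

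Matrix and fibroblast genes were lower in injured mutants where they were called. Of 88 extracellular matrix genes, 3 fell and none rose (3.41% called, beside 1.48% of all genes), and 63 had a negative fold change. Of 36 fibroblast and tendon markers, 3 fell and none rose (8.33% called), and 30 had a negative fold change. The lists share members, among them DCN, COL1A2 and LUM, and DCN is among the 3 calls of each, so they are not separate results. The medians were -0.20 and -0.40 log2 units, against -0.001 over all genes, and without TMM scaling -0.08 and -0.28 against 0.13. At rest, with TMM scaling, the medians were -0.28 and -0.22, against -0.01 over all genes. The groups did not overlap for 14 lower and 4 higher matrix genes and for 11 lower and 1 higher fibroblast marker, beside 5.86% lower and 5.92% higher of all genes.

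THBS4 (ENSDARG00000020072), a thrombospondin of tendon and muscle attachment, had 94.4, 92.7, 85.9 and 61.9 CPM in injured wild types and 32.3, 41.3, 28.1 and 32.6 CPM in injured mutants. No mutant reached the lowest wild type. The other tested THBS4 ID, ENSDARG00000102777, did not pass (-0.97, edgeR adjusted p = 0.13), while for the first the log2 fold change was -1.32 (SE 0.20, edgeR adjusted p = 0.0029). LOXL1, a lysyl oxidase family enzyme that cross-links elastin, had 53.5, 67.8, 55.0 and 36.1 CPM in wild types and 29.5, 28.6, 27.6 and 24.6 CPM in mutants (log2 fold change -0.95, SE 0.17, edgeR adjusted p = 0.0090). That call was lost without TMM scaling (edgeR adjusted p = 0.064). Decorin (DCN), a small proteoglycan that binds collagen fibrils, had 478, 496, 460 and 324 CPM in wild types and 271, 254, 255 and 262 CPM in mutants. Wild type 4 lay between the other wild types and the mutants, and the log2 fold change was -0.76 (SE 0.15, edgeR adjusted p = 0.021).

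The proteoglycan osteoglycin (OGN, ENSDARG00000031489) fell by 0.90 on the log2 scale (SE 0.20, edgeR adjusted p = 0.037), from 33.6 ± 6.6 to 18.0 ± 2.3 CPM (SD, n = 4 each). CLEC3B, which encodes the plasminogen-binding tetranectin, fell by 1.62 (SE 0.32, edgeR adjusted p = 0.019), from 8.87 ± 0.73 to 2.89 ± 1.3 CPM (SD, n = 4 each). Collagen I genes did not pass, with col1a1a at 3397 ± 548 CPM in wild types and 2152 ± 151 CPM in mutants (SD, n = 4 each, edgeR adjusted p = 0.11). Among matrix proteases, the membrane-type metalloproteinase MMP15 (ENSDARG00000013072) was the 1 call of 29 (3.45% called, beside 1.48% of all genes). It rose from 7.08 to 12.5 CPM in wild types to 20.1 to 24.9 CPM in mutants (log2 fold change 1.06, SE 0.18, edgeR adjusted p = 0.0063). The call of DCN was lost without TMM scaling and without any of injured wild types 1 to 3 or mutants 2 to 4 (edgeR adjusted p 0.061 to 0.093). OGN lost its call on leaving out any of 9 single libraries (edgeR adjusted p 0.052 to 0.110), and CLEC3B on leaving out any of 4 (0.054 to 0.060). Both were also lost without TMM scaling (edgeR adjusted p = 0.128 for OGN and 0.079 for CLEC3B), so of these 5 matrix and fibroblast falls only that of THBS4 held without it. In resting mutants the 5 genes were lower too, with log2 fold changes of -0.65 to -0.41, although none was called there. No interaction passed for them (edgeR adjusted p 0.60 to 0.88).

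Several called genes of cell adhesion stood out after their values were seen, outside the naming rule. Their calls were not followed gene by gene through the alternatives, and no list of adhesion genes was counted. ITGB1 (ENSDARG00000071863), a beta-1 integrin chain, had 114, 130, 137 and 122 CPM in injured wild types and 52.9, 50.9, 55.2 and 72.4 CPM in injured mutants, a log2 fold change of -1.12 (SE 0.19, edgeR adjusted p = 0.0064). The other tested IDs with that symbol were not called. The integrin-linked adaptor lims2 fell by 1.02 (edgeR adjusted p = 0.0056) and the focal adhesion kinase gene ptk2ab by 0.54 (edgeR adjusted p = 0.037). In the other direction, ITGA5, the alpha chain of the fibronectin receptor, had a log2 fold change of 0.62 (edgeR adjusted p = 0.035) and the caveolar coat gene CAVIN1 of 0.88 (edgeR adjusted p = 0.028).

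**Figure D3:**
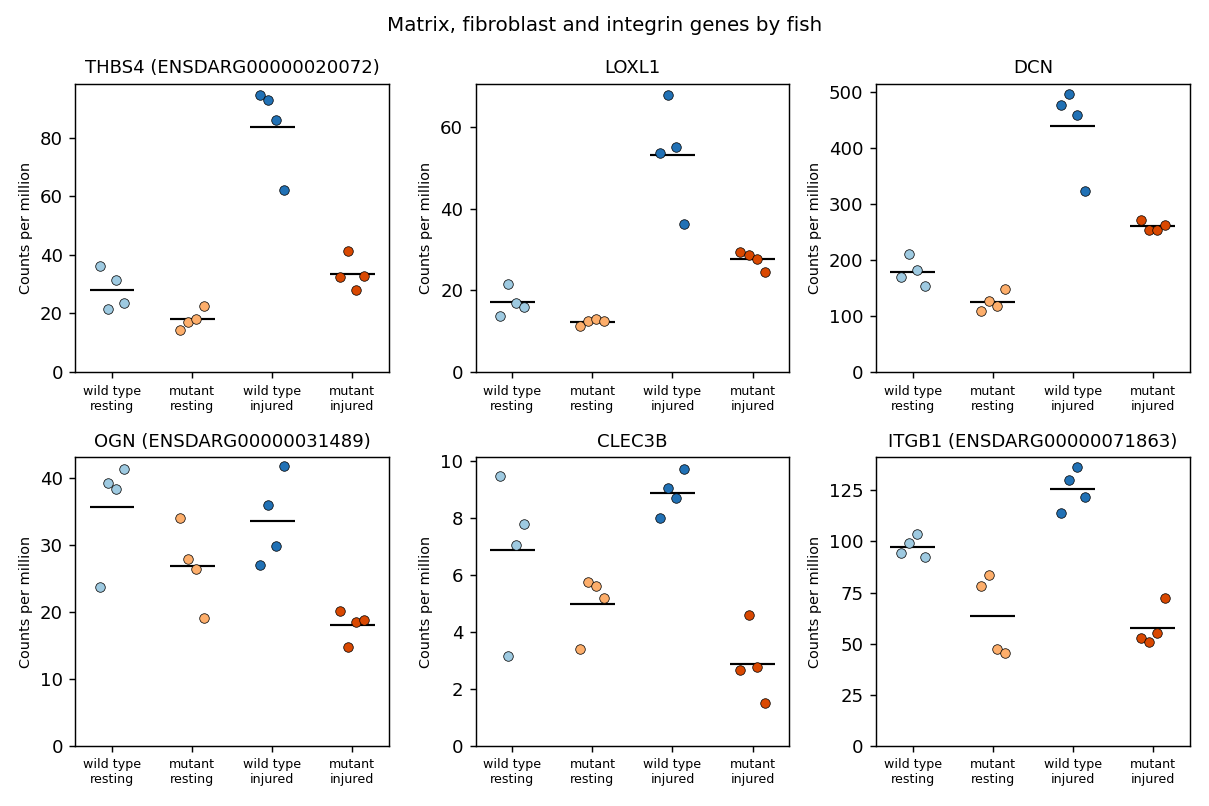
CPM of THBS4, LOXL1, DCN, OGN, CLEC3B and ITGB1 in each fish by genotype and injury, 1 point per fish, bars at the group means. In all 6 panels the 4 injured mutants lie below the 4 injured wild types, and for THBS4, LOXL1 and DCN both injured groups have higher means than their resting groups.

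Several genes differed between the genotypes with and without a wound. MYL9 (ENSDARG00000008030), a regulatory light chain of smooth muscle and non-muscle myosin, had 69.6, 61.0, 82.3 and 83.2 CPM in injured wild types and 249, 223, 211 and 209 CPM in injured mutants. The log2 fold change was 1.59 (SE 0.18, edgeR adjusted p = 0.00021) after injury and 1.41 (edgeR adjusted p = 0.00056) at rest. It was the 1 call of 29 smooth muscle and pericyte markers (3.45% called, beside 1.48% of all genes). The long non-coding gas5, host of small nucleolar RNAs, had 1.65 to 3.21 CPM in injured wild types and 9.66 to 13.04 CPM in injured mutants (log2 fold change 2.40, SE 0.24, edgeR adjusted p = 8.7e-05). NTSR1, a neurotensin receptor, had at most 0.254 CPM in injured wild types and 1.15 to 4.99 CPM in injured mutants (log2 fold change 3.92, SE 0.56, edgeR adjusted p = 0.0024). Its call in injured muscle was lost with limma-voom, an alternative tool (limma-voom adjusted p = 0.105).

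On the lower side, itgam.1, related to the alpha-M integrin of myeloid cells, had 33.8, 35.1, 24.0 and 18.9 CPM in injured wild types and 8.64, 9.03, 9.29 and 6.03 CPM in injured mutants. Its log2 fold change was -1.76 (SE 0.25, edgeR adjusted p = 0.0023), and -3.00 at rest (edgeR adjusted p = 4.1e-05). The lipid transporter gene ABCA3 fell by 1.25 after injury (SE 0.16, edgeR adjusted p = 0.00099) and by 1.67 at rest. The T-box gene tbx6, a regulator of paraxial mesoderm in embryos, had 1.78 to 2.83 CPM in injured wild types and 0.0502 to 0.148 CPM in injured mutants (log2 fold change -4.26, SE 0.44, edgeR adjusted p = 0.00010). The selenoprotein gene selenos, of the endoplasmic reticulum, fell by 0.90 (edgeR adjusted p = 0.0029) and the chaperone gene calr3b had a log2 fold change of 0.86 (edgeR adjusted p = 0.0016). The autophagosome gene MAP1LC3B fell by 0.89 (edgeR adjusted p = 0.011), and ACKR3 (ENSDARG00000058179), a scavenging chemokine receptor, by 1.28 (edgeR adjusted p = 0.012).

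**Figure D4:**
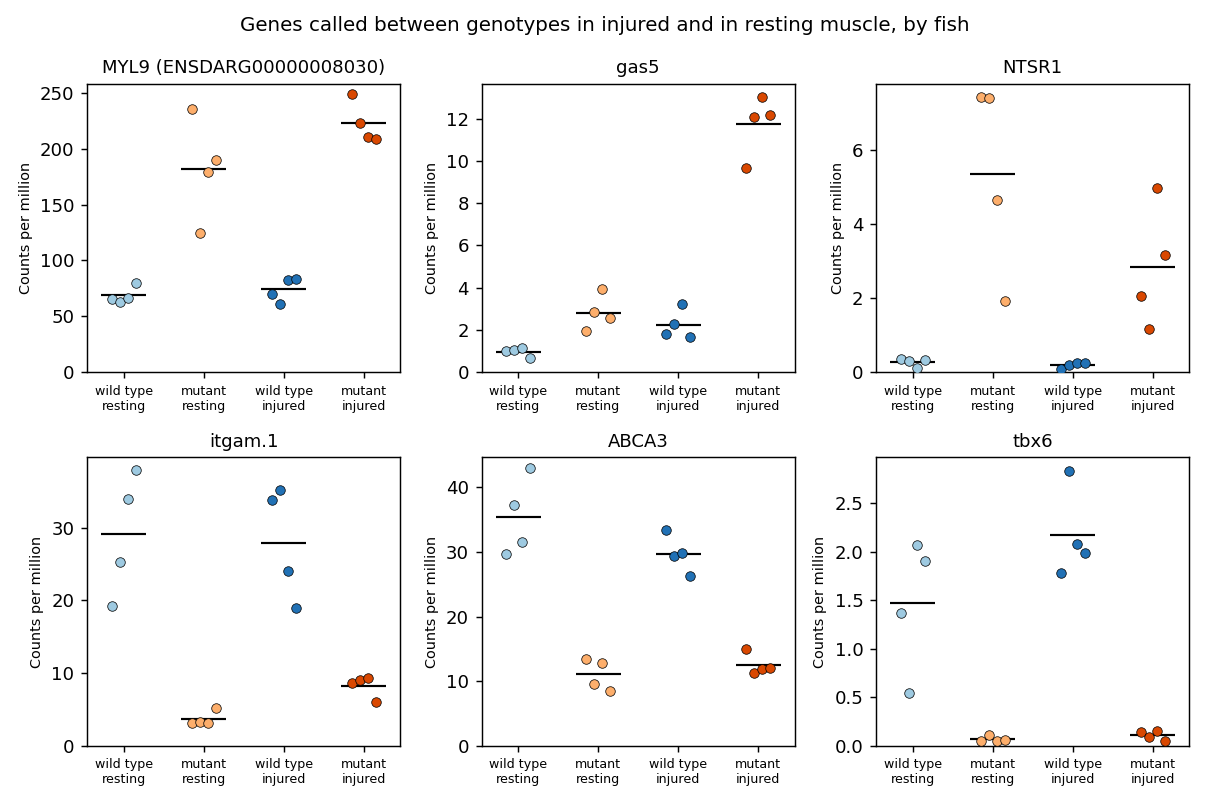
CPM of MYL9, gas5, NTSR1, itgam.1, ABCA3 and tbx6 in each fish by genotype and injury, 1 point per fish, bars at the group means. Mutants and wild types do not overlap in either state for any of the 6 genes.

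Some calls rested on genes that were at or near 0 in all 4 injured fish of a genotype. The zinc finger gene znf1156 had 0 counts in all 4 injured wild types and 1.68 to 6.38 CPM in injured mutants, at least 142-fold higher against a floor of 3 counts over the group. Its call was lost on leaving out any of 13 single libraries (edgeR adjusted p 0.057 to 0.104). SLC2A1 (ENSDARG00000001437), a glucose transporter, had 1 count in all injured wild types and 96 in injured mutants, a ratio of 116 with a 95% counting interval from 20.2 to 4610. Among wild types at rest, some of these genes varied from fish to fish. For znf1156, resting wild types 1 to 4 had 2.43, 4.15, 0 and 0 CPM, so it was not absent from that genotype. For znf1179, resting wild types 1 to 4 had 17.4, 17.3, 0.57 and 0.50 CPM, while injured wild types had 0.363 to 0.634 CPM and injured mutants 10.6 to 27.97 CPM. The call of znf1179 was lost on leaving out any of 5 single libraries (edgeR adjusted p 0.051 to 0.080). It was also lost with limma-voom (limma-voom adjusted p = 0.106).

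NUS1, a subunit of the enzyme that makes dolichol, fell by 1.36 (edgeR adjusted p = 0.025), although any of 6 single libraries left out ended that call (0.061 to 0.077). Of 37 circadian genes, 2 fell (5.41% called), the clock output gene dbpb by 0.79 (edgeR adjusted p = 0.0059) and the clock repressor PER1 (ENSDARG00000012499) by 0.56 (edgeR adjusted p = 0.038). Both calls were lost without TMM scaling (edgeR adjusted p = 0.11 and 0.18), and that of PER1 also on leaving out any of 8 single libraries (0.055 to 0.125). At rest dbpb was lower by a similar amount (-0.81, edgeR adjusted p = 0.0051), while PER1 was not called (-0.16, edgeR adjusted p = 0.50). Of the 37 genes, 2 were called higher and 3 lower at rest, beside 1.38% and 1.45% of all genes. IFIH1, a sensor of double-stranded RNA, fell by 0.86 (edgeR adjusted p = 0.020) as the 1 call of 33 interferon genes (3.03% called, beside 1.48% of all genes). That call was lost without TMM scaling (edgeR adjusted p = 0.17) and on leaving out any of 4 single libraries (0.052 to 0.073).

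Blood and phagocyte markers gave no call in edgeR. For scale, 2474 of all 16514 genes tested (15%) had an unadjusted edgeR p below 0.05, and DESeq2 called 701. Of 14 neutrophil markers, 13 had a negative fold change, 6 had an unadjusted p below 0.05, and DESeq2 called 4 as lower. Their summed level was 105 to 269 CPM in injured wild types and 106 to 117 CPM in injured mutants, so the ranges overlapped. Of 53 macrophage markers, 10 had an unadjusted p below 0.05 and DESeq2 called 1, with summed levels of 565 to 1422 CPM in wild types and 957 to 1274 CPM in mutants. Of 17 erythrocyte markers, 13 had a negative and 4 a positive fold change. An unadjusted edgeR p below 0.05 was found for 7, of which tfr1b and SPTB were higher in mutants. DESeq2 called 1 in each direction, and the sums were 485 to 1174 CPM in wild types and 314 to 470 CPM in mutants. The alpha globin hbaa1 had 444 ± 225 CPM in wild types and 108 ± 36.6 CPM in mutants (SD, n = 4 each, edgeR adjusted p = 0.054). The less abundant hbaa2 had 7.76 ± 9.3 CPM in wild types and 7.06 ± 4.3 CPM in mutants (SD, n = 4 each, edgeR adjusted p = 0.96). The part of blood in the differences above was not tested.

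Other genes met the naming rule, by size or certainty of the change, as list members, or as calls shared with resting muscle. The vitamin B12 carrier gene tcn2 had 4.16 to 5.77 CPM in injured wild types and 15.2 to 21.8 CPM in injured mutants (log2 fold change 1.83, SE 0.24, edgeR adjusted p = 0.00099). The transcription factor gene snai3 had 0.436 to 3.17 CPM in wild types and 6.17 to 11.2 CPM in mutants (log2 fold change 2.38, SE 0.48, edgeR adjusted p = 0.023). The small GTPase gene RASL12 fell by 1.45 (edgeR adjusted p = 0.0029), from 13.1 ± 2.2 to 4.77 ± 1.1 CPM (SD, n = 4 each). GFER, a mitochondrial sulfhydryl oxidase, fell by 1.297 (edgeR adjusted p = 0.024), from 6.01 ± 1.0 to 2.44 ± 0.61 CPM (SD, n = 4 each). The calls of snai3 and GFER were lost on leaving out any of 4 and 6 single libraries (edgeR adjusted p 0.058 to 0.072 and 0.050 to 0.076), and that of GFER also without TMM scaling (0.079). Further rises under the rule were asgr1c.1, wfdc2, RNASEK, PYGL, gig2e, PLCB2, CHRNA9, CCDC39 and DUSP4, and further falls were btr07, spata7, trim105, ifi27.4, arl11, bcan, VGLL4, PIGP and PAX6. Of these 18, leaving out a single library ended the call of 12, up to an edgeR adjusted p of 0.131. At rest, RNASEK, gig2e, PLCB2, CHRNA9, CCDC39, btr07, spata7, arl11 and PAX6 were also called in the same direction. So was tcn2 (log2 fold change 0.96, edgeR adjusted p = 0.038).

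Lists of cell division and protein folding also had no edgeR call. Of 40 DNA replication genes, 32 had a positive fold change, with a median of 0.26, 6 unadjusted p-values below 0.05 and no DESeq2 call. Over all genes tested, 2474 (15%) had an unadjusted edgeR p below 0.05 and DESeq2 called 701. The replication genes summed to 170 to 205 CPM in injured wild types and 163 to 285 CPM in injured mutants, so the ranges overlapped. Their median at rest was 0.21. Among 47 heat shock and endoplasmic reticulum chaperones, 35 had a positive fold change, 13 had an unadjusted p below 0.05 and DESeq2 called 2 as higher. Their summed level was 3869 to 4638 CPM in injured wild types and 4767 to 5080 CPM in injured mutants, ranges that did not overlap. Of 76 cytosolic ribosome genes, 72 had a negative fold change, with a median of -0.16 that became -0.02 without TMM scaling, 1 unadjusted p below 0.05 and no DESeq2 call.

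**Figure D5:**
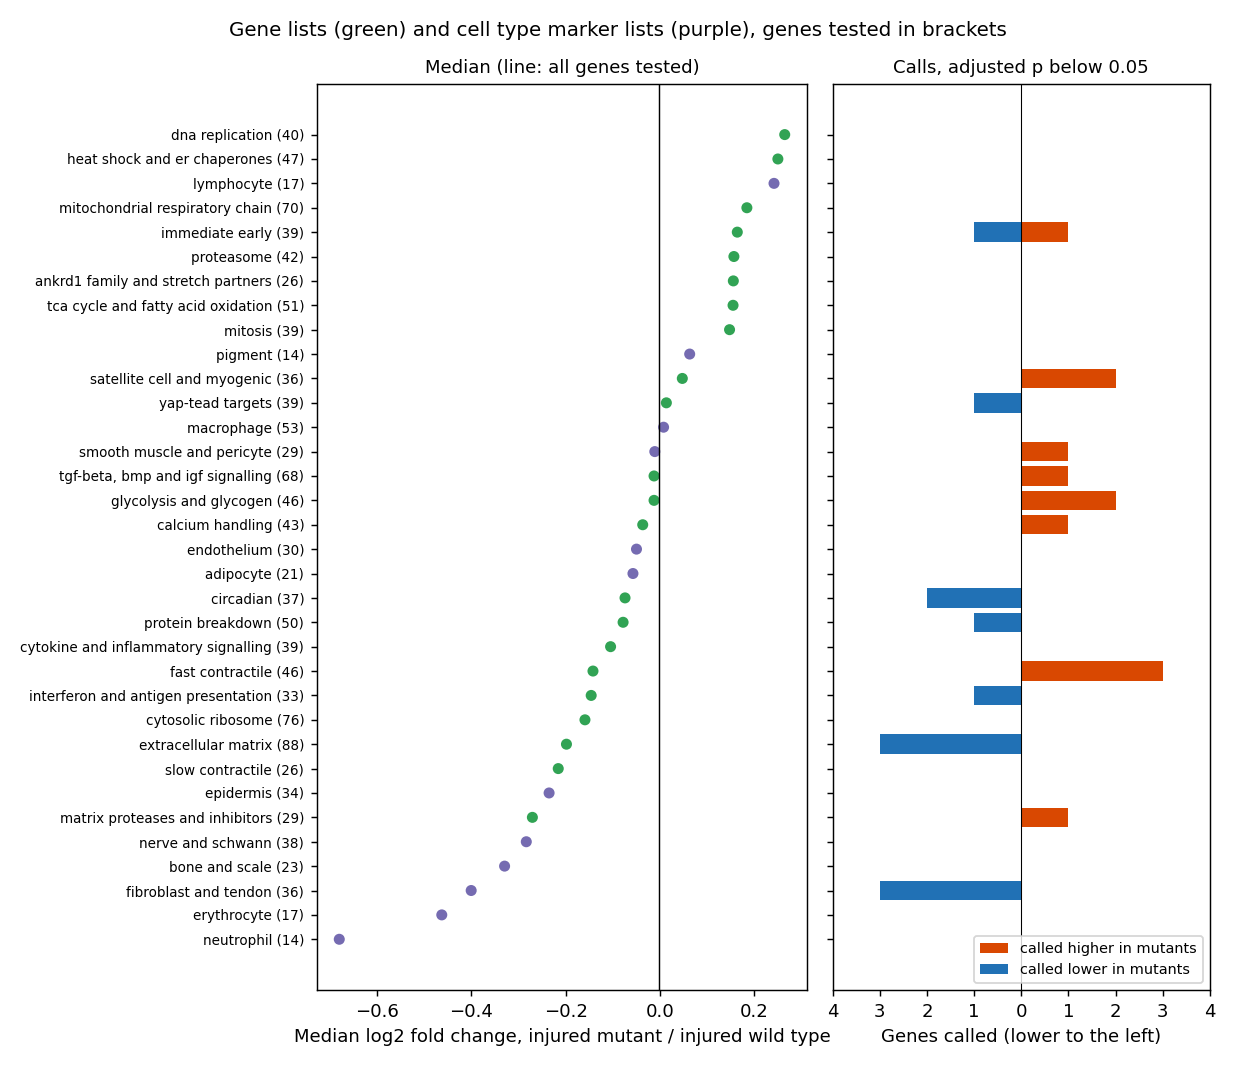
Median log2 fold change of injured mutants over injured wild types (left) and number of genes called higher or lower (right) for 34 gene and marker lists, with the number of genes tested in brackets. The lowest medians belong to neutrophil, erythrocyte and fibroblast and tendon markers, and no list has more than 3 calls in either direction.

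Called genes were also placed by gene order around ankrd1a in the RefSeq annotation, using 11536 genes whose symbols matched uniquely, of which 148 (1.28%) were called. Within 50, 100, 200 and 400 genes to either side, 1 of 47 (2.13%), 4 of 103 (3.88%), 5 of 214 (2.34%) and 9 of 373 (2.41%) were called, and on the whole chromosome 9 of 436 (2.06%). Over the 25 chromosomes this share ran from 0.418% to 2.58%. Nearest of the 9 were ttbk1b, si:ch73-288o11.5, CLN8 and ACSS1, at positions -22, -61, 64 and 88 in gene order, counted from ankrd1a at 0. DGLUCY, spata7 and PLCB2, named above, lay farther out, at 281, -348 and -356. The annotation's build may differ from that of the counts, and linkage to the edited locus was not tested.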

How the data were processed

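Poly(A) RNA was sequenced from skeletal muscle of 16 fish, with an Illumina TruSeq stranded kit, per the labels' protocols. The authors deposited 1 table of estimated counts per gene, in which 94.3% of values are whole. Per the submitters' processing notes, RSEM 1.3.3, fastp 0.23.4 and the STAR aligner (2.7.0, 2.7.10) were used. No genome build, annotation, strand setting or batch is stated there or in the labels. Without the strand setting, overlapping and antisense genes cannot be told apart.

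Estimated counts were rounded and fitted with edgeR 4.0.16 in R 4.3.3, with 1 mean per group over all 16 libraries, TMM scaling, edgeR's filter for low counts (minimum count 10, minimum total 15) and Benjamini-Hochberg adjustment over the 16514 genes kept. The resting contrast and the interaction came from the same fit. DESeq2 1.42.0 and limma 3.58.1 were alternatives, with others on scaling, filters, depth, an epidermis covariate, a replicate block and each library left out. The code was tested on simulated data. The biological coefficient of variation was 31.3%. Counting intervals and floors cover counting error only.

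Symbols were found for 29201 of 32520 gene IDs. Genes were named by a rule: the ANKRD1 family, the largest and most certain calls in each direction, up to 5 called members of each list, interaction calls, and the largest calls shared by both injury states. The members and lists were chosen with earlier results of these data known. Some genes that met the rule are not reported here.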

Additional observations from a re-analysis of the deposited data

Results flagged for a closer look

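A total of 10 values stood apart from the other 3 fish of their group, out of 120 groups tested. A chance rate of about 1 in 20 may not apply, because the genes were mostly chosen by their calls. Nor does it suit the flags of btr07 and SLC2A1, where 1 count stood against 0 in the other fish. Injured mutant 3 was low for CCDC92, at 6.77 CPM against 12.8 to 13.6, for myhz2, at 4729 CPM against 7578 to 7822, and for ANKRD1 (ENSDARG00000075263), at 90.05 CPM against 141 to 148. The same fish was high for MMP15, at 24.9 CPM against 20.1 to 20.7. Injured mutant 1 was low for CDH15, at 46.8 CPM against 50.9 to 51.0, and high for dbpb, at 16.5 CPM against 10.9 to 11.6. It was also the 1 mutant with a count of btr07, at 0.0467 CPM. Injured wild type 2 was low for selenos, at 23.1 CPM against 31.2 to 32.8, and high for SERPINH1 (ENSDARG00000019949), at 83.1 CPM against 63.0 to 65.8. Injured wild type 1 was the 1 wild type with a count of SLC2A1, at 0.0363 CPM.

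The genotype effect differed between injured and resting muscle, by the interaction test, for 6 genes with a symbol. In log2 units, the injured effect minus the resting effect was -2.20 for DGLUCY, 3.59 for CCDC92, 1.75 for rcan1a, -1.31 for SERPINH1, 1.42 for TRHDE and -5.23 for znf1094. These interaction terms were not followed gene by gene through the alternatives. The number of interaction calls was 66 with DESeq2 and 4 with a replicate block.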

How the results depend on the processing

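All 244 calls kept their sign under each alternative that tested them, and 26 of 55 named calls held under all of these. DESeq2 called 701 genes (361 higher, 340 lower), with 1136 at rest, 229 in both states and 66 for the interaction. Fitting only the 8 libraries compared gave 386 (214 higher, 172 lower), with 130 at rest and 34 in both states. The interaction gave 6 calls and the injured falls 54 without TMM scaling, and the interaction 5 with the stricter filter. Limma-voom gave 289 resting and 5 interaction calls. The epidermis covariate gave 156 resting calls, 49 in both states and 5 for the interaction. The replicate block gave 164 injured calls, 86 of them higher, and 4 interaction calls. Same-numbered injured fish had correlations of -0.014 to 0.156, and differently numbered ones of -0.242 to 0.233. So few values cannot decide whether fish of the same number shared a batch, which the labels do not state. Thinning to equal depth gave 212 injured calls. Leaving out 1 library gave 106 to 289 injured calls (53 to 164 higher, 53 to 127 lower), 172 to 625 at rest, 45 to 91 in both states and 5 to 13 for the interaction. The injured effect of znf1094, 0.06, reversed to -0.50 with limma-voom, -0.19 on thinning, -0.11 without wild type 1 and -0.26 and -0.16 without mutants 3 and 4, within a range of -0.26 to 0.48 over single libraries left out. Fewer samples were fitted in the left-out settings, and for the others the cause was not tested.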

Other observations

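A called pair of thyroid hormone genes lay outside the naming rule, was chosen after its values were seen, and was not followed through the alternatives. DIO1, a deiodinase, fell by 0.98 (SE 0.20, edgeR adjusted p = 0.025), from 5.02 ± 0.19 to 2.55 ± 0.43 CPM (SD, n = 4 each). The receptor gene THRB had 23.3 to 25.9 CPM in injured wild types and 16.2 to 17.4 CPM in injured mutants, with a log2 fold change of -0.55 that was just past the threshold (SE 0.13, edgeR adjusted p = 0.0499).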
